A study of Mus musculus with 54 samples.

Results

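Prostate tumours of castrated TKO mice given vehicle were compared with prostate tumours of castrated DKO mice by bulk RNA sequencing. The genotype and treatment labels chose the animals: genotype TKO with treatment Cx-Veh gave 4 animals, and genotype DKO with treatment Cx gave 4 animals, so that 8 of the 54 libraries of the series entered the comparison. All 8 mice were castrated at 12 weeks. The labels do not spell out the alleles. In the published mouse models of these names, a Cre recombinase under the probasin promoter, which is active in prostate epithelium, deletes several tumour suppressor genes, among them Rb1 in both DKO and TKO mice and Trp53 in TKO mice alone, so the loss of Rb1 is shared by both groups. The other cells of the tumour keep the genes in these models.

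The groups also differed in age, in time after castration and in handling. The TKO animals were sampled at 19, 15, 17 and 17 weeks (replicates 1 to 4), and the DKO animals at 39, 99, 84 and 50 weeks. Mean age was 17 ± 1.63 weeks in TKO mice and 68 ± 28.2 weeks in DKO mice (SD, n = 4 each), with no overlap (exact two-sided permutation test, p = 0.0286, the smallest that 4 against 4 allows). The TKO tumours were therefore taken 3 to 7 weeks after castration and the DKO tumours 27 to 87 weeks after it. Vehicle is named for the TKO group and no vehicle for the DKO group. Genotype, age, time after castration and vehicle cannot be told apart in these 8 animals.

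Prostate tumours that lose Rb1 beside other tumour suppressors can change from luminal adenocarcinoma to neuroendocrine carcinoma, a small-cell tumour that no longer depends on androgen. The p53 protein, encoded by Trp53, is a transcription factor that is stabilized by DNA damage and oncogene activity and switches on genes for cell-cycle arrest (Cdkn1a), death receptors (Eda2r) and its own destruction (Mdm2). The comparison sets castrated TKO tumours beside castrated DKO tumours. It cannot separate the part of Trp53 from age, time after castration and vehicle.

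Values are log2 of a normalized read count plus 1, as deposited, and a difference is the TKO mean minus the DKO mean on that scale. Between 5024409 and 6426670 reads per library fell on genes of the table. Each animal gave 1 library, so the spread within a group is that between animals. Of the muscle transcripts that dissection can carry along, titin (Ttn) took 0.404% and 0.142% of the reads in TKO 2 and TKO 3 and at most 0.00453% in the other 6 libraries. Over the skeletal muscle list as a whole, the mean level was high in TKO 2 and not in TKO 3 (given further on).

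The defining markers of the neuroendocrine tumour type were high in 6 of the 8 tumours and low in the other two, TKO 1 and DKO 2. Chga, which encodes the granule protein chromogranin A, was at 6.06, 10.01, 12.22 and 11.17 in TKO 1 to 4 and at 10.14, 3.59, 10.51 and 10.48 in DKO 1 to 4. Chga put TKO 1 and DKO 2 below every other tumour. The synaptic vesicle gene Syp (4.80 in TKO 1 and 2.36 in DKO 2), the zinc finger factor gene Insm1 (5.78 and 1.25) and the forkhead factor gene Foxa2 (4.80 and 4.24) gave the same order, while the other 6 tumours had at least 9.58 for each of these 3 genes.

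TKO 1 and DKO 2 also had the highest levels of basal and squamous markers, and TKO 1 the highest levels of stromal ones. Krt5, a basal keratin gene, was at 11.87, 9.48, 0 and 4.33 in TKO 1 to 4 and at 14.23 in DKO 2, with 3.62, 0 and 1.08 in DKO 1, 3 and 4. Trp63, the basal cell regulator, reached 8.76 in TKO 1 and 11.31 in DKO 2, with 7.39 in TKO 2. The type I collagen gene Col1a1, chosen here as a fibroblast marker, was at 17.03 in TKO 1, against 11.82 to 13.77 in the other 3 TKO tumours and 12.42 to 13.58 in DKO tumours. Vim, a gene of mesenchymal cells, was at 13.31 in TKO 1 and at most 10.79 elsewhere. The neutrophil list summed to 3539 normalized counts in TKO 1 and 11500 in DKO 2, and to at most 763.2 in the others.

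Across all genes of the table, the 6 tumours with high Chga correlated with each other at Spearman's rho of 0.907 to 0.979 whatever their genotype. TKO 1 correlated with them at 0.779 to 0.876 and DKO 2 at 0.731 to 0.822, and these tumours with each other at 0.911. DKO 2 is the 99-week animal. Gene lists and most of the genes below are therefore given also without DKO 2, and some without both TKO 1 and DKO 2, a choice made after seeing the data. Of 88 genes named, 10 changed sign without DKO 2.

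**Figure D1:**
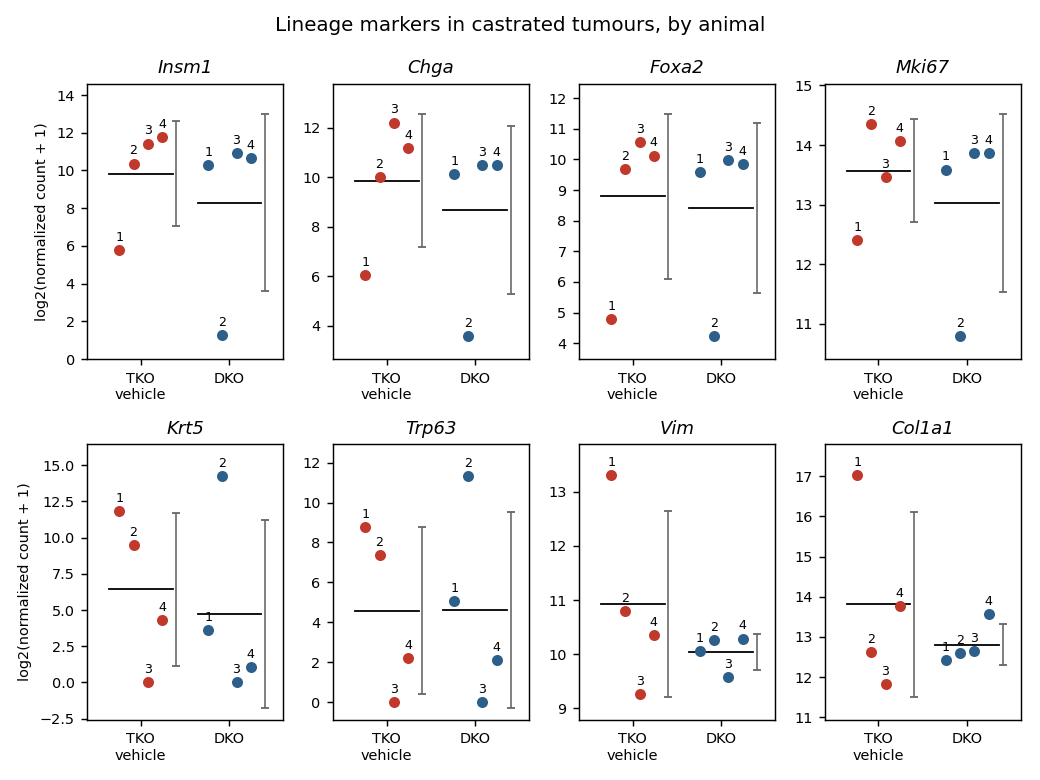
Levels of 8 lineage genes, as log2(normalized count + 1), in each castrated TKO vehicle tumour (red, left) and each castrated DKO tumour (blue, right), numbered by replicate, with the group mean (line) and SD (bar to the right). Insm1, Chga and Foxa2 are lowest in TKO 1 and DKO 2, Krt5 and Trp63 are highest in DKO 2, and Vim and Col1a1 are highest in TKO 1.

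Trp53 itself was lower in every TKO tumour than in any DKO tumour. The gene (chromosome 11, 69580359 to 69591873, GRCm38) stood at 7.85, 6.79, 6.25 and 5.96 in TKO 1 to 4 and at 8.46, 8.99, 8.89 and 8.37 in DKO 1 to 4. Means were 6.71 ± 0.83 in TKO tumours and 8.68 ± 0.31 in DKO tumours (SD, n = 4 each), a log2 fold change of -1.97 (SE 0.41). Over all genes this difference missed the threshold (limma, adjusted p = 0.622, and adjusted p = 0.538 without DKO 2 at a log2 fold change of -1.86), and as a single value it reached the smallest p of an exact two-sided permutation test, 0.0286. It passed when all 5 castrated groups of the series shared one estimate of the spread (adjusted p = 0.0145), and not when age was a covariate in that fit (log2 fold change -1.45, adjusted p = 0.570). All castrated TKO animals were younger (15 to 19 weeks) than all other castrated animals (34 to 99 weeks). The covariate therefore cannot separate age from the TKO genotype. The highest TKO value was that of TKO 1, the tumour with the most collagen. A gene-level count includes reads from exons that remain after a deletion and from stromal cells, and their shares were not measured here.

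Rb1, which both models are built to lose, did not differ past the test. This gene of the retinoblastoma tumour suppressor was at 8.23, 9.11, 8.95 and 9.06 in TKO 1 to 4 and at 9.11, 7.88, 9.03 and 8.94 in DKO 1 to 4, with TKO 1 and DKO 2 lowest in their groups. Ezh2, the histone methyltransferase gene targeted in other mice of the series, had a log2 fold change of 0.08 (95% interval -0.89 to 1.06), or -0.23 without DKO 2, and was likewise lowest in TKO 1 at 8.45 and DKO 2 at 8.43.

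Over the whole table, 1 gene of 16529 was higher in TKO tumours (0.00605% of those tested) and 1 was lower (0.00605%) at an adjusted p under 0.05. At an unadjusted p under 0.05, 313 genes were higher (1.89%) and 317 lower (1.92%), which together is below 5% of the genes. Groups did not overlap for 204 genes that were higher (1.23%) and 200 that were lower (1.21%). Without DKO 2, limma called 1 gene higher (0.00608%) and 0 lower, with 407 (2.47%) and 390 (2.37%) at an unadjusted p under 0.05. Without TKO 1 and DKO 2, 2 genes were called in each direction (0.0122% each), and 652 (3.98%) and 709 (4.33%) reached an unadjusted p under 0.05. Apart from Rprl3 and Nlrp1c-ps, described further on, the values of the genes named below did not pass the test in the comparison of 4 with 4, and they are given as measured differences with their spread.

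Target genes of p53 lay mostly lower in the TKO tumours. Of the 46 genes tested from a list of 48 p53 targets, 39 had a negative difference and 7 a positive one, with a median of -0.53 beside 0.02 over all genes. No member passed at an adjusted p under 0.05, 9 were lower and 0 higher at an unadjusted p under 0.05 (beside 1.92% and 1.89% of all genes), and 3 had groups that did not overlap, all lower (beside 1.21%). Without DKO 2 the median was -0.46 with 35 of 46 negative, and without TKO 1 and DKO 2 it was -0.59 with 43 of 46 negative. The summed level of the list was 13360 to 20510 normalized counts in the TKO tumours and 24660 to 45240 in the DKO tumours, so these sums did not overlap. The mean log2 level of the same genes did overlap, at 6.89 to 7.97 in TKO tumours and 7.40 to 8.42 in DKO tumours. With age as a covariate over the 5 castrated groups the median was 0.10, in a fit that cannot separate age from the TKO genotype.

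Cdkn1a encodes p21, the inhibitor of cyclin-dependent kinases through which p53 stops the cell cycle. It was at 9.64, 9.002, 8.597 and 8.699 in TKO 1 to 4 and at 8.87, 10.93, 11.88 and 10.24 in DKO 1 to 4. DKO 1, the 39-week animal, overlapped the TKO tumours and the other 3 DKO tumours lay above all of them. The log2 fold change was -1.50 (SE 0.59), -1.34 without DKO 2, and 0.02 with age as a covariate, under the same limit.

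Ccng1, which encodes cyclin G1, a p53-induced regulator that acts with MDM2, was at 10.26, 9.67, 9.42 and 9.12 in TKO tumours and at 9.72, 11.46, 11.64 and 11.16 in DKO tumours. The order was that of Cdkn1a, with DKO 1 among the TKO values and DKO 2, 3 and 4 above them. It differed by -1.37 (SE 0.44), -1.22 without DKO 2 and -0.34 with age as a covariate, under the same limit.

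Both genes are shown with their promoter because each carries a copy that departs at 1 base from the p53 consensus element, a pair of adjoining half-sites of 10 bases each with no bases between them. RefSeq promoter windows on GRCm38.p6, from 250 bases before to 50 bases after an annotated start, were found for 36 of the 46 genes and searched on both strands. Capitals mark the 20-base match. The Cdkn1a window (chr17:29090729-29091028, plus strand) belongs to 1 of the 2 annotated starts of the gene, and its match begins 51 bases before that start. The Ccng1 window (chr11:40755237-40755536, minus strand) holds its match 195 bases before the start.
Cdkn1a: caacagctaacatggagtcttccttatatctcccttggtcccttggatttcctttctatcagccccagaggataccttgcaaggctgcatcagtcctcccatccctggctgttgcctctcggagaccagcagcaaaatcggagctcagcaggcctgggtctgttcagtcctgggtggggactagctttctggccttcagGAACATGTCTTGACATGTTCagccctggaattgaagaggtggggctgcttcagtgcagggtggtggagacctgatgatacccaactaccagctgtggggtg
Ccng1: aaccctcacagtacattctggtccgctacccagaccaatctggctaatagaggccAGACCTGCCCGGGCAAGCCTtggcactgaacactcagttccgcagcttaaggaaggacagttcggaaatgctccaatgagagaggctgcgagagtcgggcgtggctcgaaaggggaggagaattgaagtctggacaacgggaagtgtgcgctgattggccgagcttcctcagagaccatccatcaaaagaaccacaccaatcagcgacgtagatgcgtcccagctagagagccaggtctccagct
The 3 other listed genes with a match of at most 2 mismatches were Gtse1 (1 mismatch), Ckap2 and Cd80 (2 mismatches each), which were named for their sites and not for their levels.
Gtse1: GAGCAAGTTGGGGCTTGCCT
Ckap2: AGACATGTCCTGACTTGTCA
Cd80: GAACAGGCCTGGACAAGTCA
A match with at most 2 mismatches was found for 5 of the 36 listed genes (13.9%) and for 0.939% of the 12892 genes of the table that have a window. A match describes the letters only. Gtse1, a p53 regulator of the G2 phase, had a log2 fold change of -0.67 (-0.86 without DKO 2), Cd80, a co-stimulatory ligand of T cells, -1.03 (-0.61 without DKO 2), and Ckap2, a spindle protein gene, 0.34 (-0.37 without DKO 2), so genes with a match did not all lie on the same side.

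Eda2r, a death-domain receptor of the TNF receptor family, had the smallest p of the list. It was at 6.78, 6.68, 6.69 and 5.58 in TKO 1 to 4 and at 7.29, 8.01, 9.71 and 9.17 in DKO 1 to 4. The groups did not overlap, and the log2 fold change was -2.11 (SE 0.56, adjusted p = 0.871) and -2.29 without DKO 2. Ei24, a p53-induced gene of the endoplasmic reticulum, differed less but with no overlap, at 9.10 to 9.44 in TKO tumours and 9.48 to 9.98 in DKO tumours (log2 fold change -0.53). Zmat3, an RNA-binding protein gene induced by p53, was at 8.81 to 9.83 in TKO tumours and 9.69 to 11.25 in DKO tumours (log2 fold change -0.98, or -1.07 without DKO 2), with DKO 1 inside the TKO range.

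The genes that act directly on p53 differed little or in the other direction. Mdm2, the ubiquitin ligase that degrades p53, was at 9.50, 9.15, 9.12 and 9.18 in TKO tumours and at 9.10, 9.48, 9.72 and 9.60 in DKO tumours, a log2 fold change of -0.24 (95% interval -0.65 to 0.18). Cdkn2a, which encodes p16 and the MDM2 inhibitor p19ARF, was at 9.82, 7.87, 8.85 and 8.72 in TKO tumours and at 8.17, 8.63, 4.07 and 7.87 in DKO tumours. The difference was 1.63 (SE 0.97) and 2.11 without DKO 2, and DKO 3 lay far below the other animals.

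**Figure D2:**
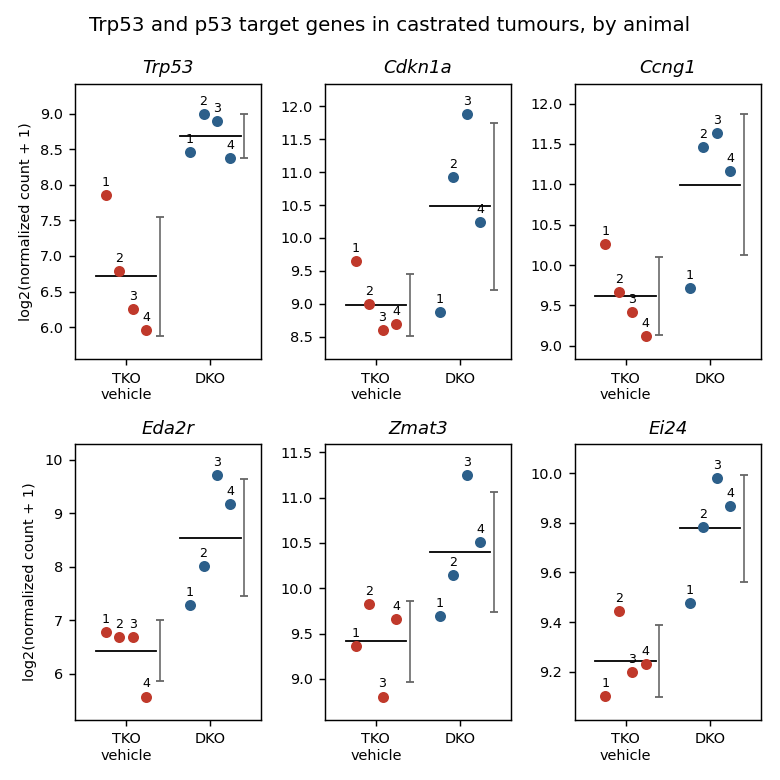
Levels of Trp53 and of 5 p53 target genes, as log2(normalized count + 1), in each castrated TKO vehicle tumour (red, left) and DKO tumour (blue, right), numbered by replicate, with group mean (line) and SD (bar). Trp53, Eda2r and Ei24 do not overlap between the groups, while DKO 1 lies within the TKO range for Cdkn1a, Ccng1 and Zmat3.

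**Figure D3:**
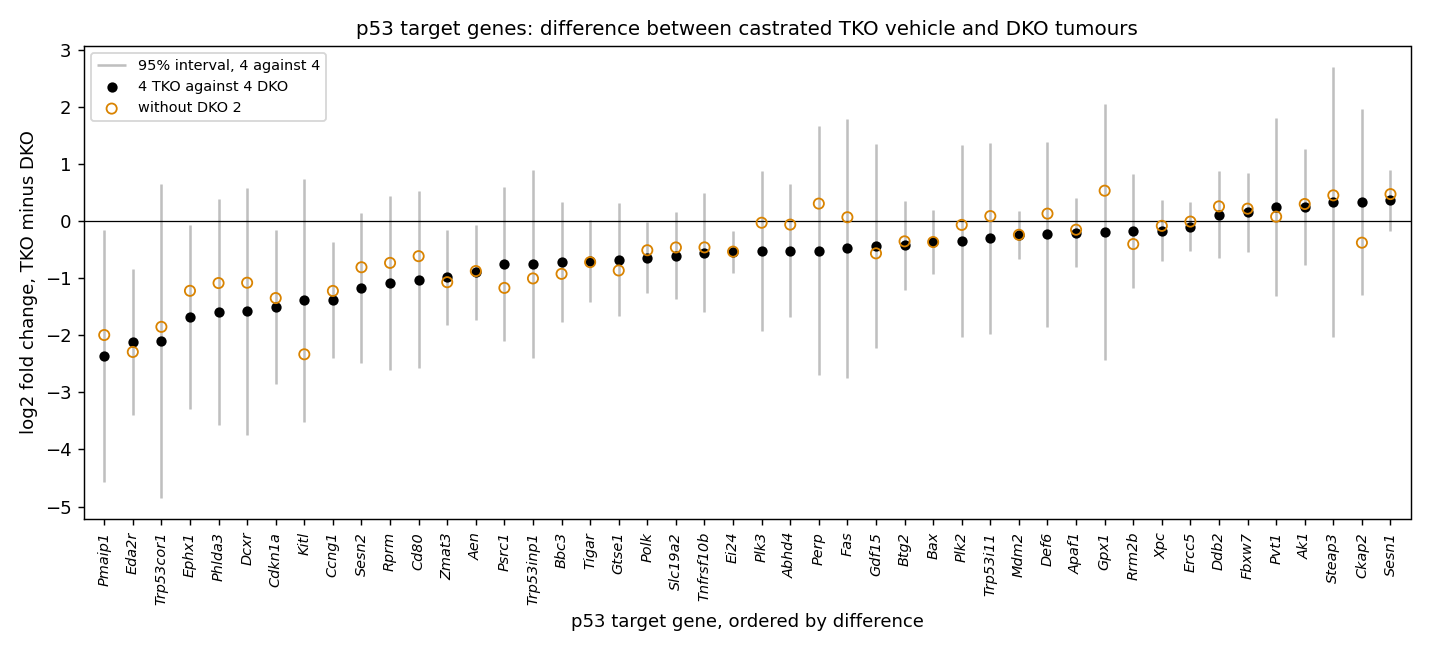
Log2 fold change, TKO minus DKO, of each of the 46 p53 target genes tested, ordered by size, with its 95% interval (grey line) and the value without DKO 2 (open circle). Of the 46 points, 39 lie below 0 with all animals and 35 without DKO 2, and most intervals include 0.

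The side of 0 on which the neuroendocrine list lay depended on which tumours were in the fit. Its 52 tested members had a median difference of 0.70 with all animals, -0.86 without DKO 2 and 0.26 without TKO 1 and DKO 2. No member passed the test, and 1 was higher and 0 lower at an unadjusted p under 0.05 (beside 1.89% and 1.92% of all genes). Without TKO 1 and DKO 2, 6 were higher and 1 lower (beside 3.98% and 4.33%). Chga had a log2 fold change of 1.19 (SE 1.86) with all animals and -0.51 (SE 1.31) without DKO 2. For Chga the spread within each group was larger than the difference between the groups.

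Among the 3 TKO and 3 DKO tumours with high Chga, a subset chosen after seeing the data, the groups overlapped for Sox2 and not for Dll3. The share of all genes without overlap in this subset was not counted. Sox2, a progenitor factor gene, was at 5.70, 10.04, 9.57 and 10.88 in TKO 1 to 4 and at 10.41, 8.29, 10.01 and 10.5 in DKO 1 to 4. Dll3, a Notch ligand of neuroendocrine tumours, was at 2.33, 4.77, 5.74 and 5.68 in TKO tumours and at 4.40, 0, 4.07 and 4.04 in DKO tumours. Its log2 fold change was 1.502 with all animals, 0.46 without DKO 2, and 1.23 without TKO 1 and DKO 2 (SE 0.47, adjusted p = 0.558). Neurod1, the factor that defines another neuroendocrine subtype, was at 0 in 6 of the 8 tumours and at 2.14 in TKO 3 and 1.25 in DKO 2. Thus Neurod1 was near the floor in all 8 tumours.

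Genes of the neuronal cytoskeleton had larger differences, carried for the neurofilaments by TKO 3 and TKO 4. Stmn2, a microtubule regulator of growing axons, was at 7.14, 5.80, 5.77 and 3.94 in TKO 1 to 4 and at 2.59, 3.21, 0 and 2.11 in DKO 1 to 4, with no overlap. Its log2 fold change was 3.69 (SE 0.91, adjusted p = 0.827) and 4.10 without DKO 2 (adjusted p = 0.453). Nefl, the light neurofilament gene, was at 2.95, 4.52, 12.54 and 11.55 in TKO tumours and at 0, 0, 0 and 3.84 in DKO tumours. Nefm, the medium neurofilament gene, was at 1.23, 3.29, 10.31 and 8.27 in TKO tumours and at 1.81, 0, 0 and 1.08 in DKO tumours. TKO 3 and TKO 4 had high levels of both neurofilament genes, and every other tumour was below 5. Of the 17 genes on the neurofilament and neuronal cytoskeleton list, 3 were higher and 0 lower at an unadjusted p under 0.05 (beside 1.89% and 1.92% of all genes), and the median was 1.04, or 0.53 without DKO 2.

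Luminal epithelial genes were lower in the TKO tumours than in the DKO tumours for a few members. Of 31 tested, 4 were lower and 0 higher at an unadjusted p under 0.05 (beside 1.92% and 1.89% of all genes), and the same 4 had groups that did not overlap (beside 1.21%). The list median was -0.56, and -0.17 without DKO 2, whose luminal sum of 136200 normalized counts was the highest of the 8. Gata3, a zinc finger factor of luminal epithelium, was at 8.94, 9.85, 9.24 and 8.91 in TKO tumours and at 11.10, 10.90, 11.53 and 10.90 in DKO tumours. Its log2 fold change was -1.87 (SE 0.25, adjusted p = 0.189) and -1.94 without DKO 2 (adjusted p = 0.207), and DKO 2 did not stand apart for it.

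The keratin gene Krt18 was at 10.74 to 11.55 in TKO tumours and 11.70 to 13.18 in DKO tumours, a log2 fold change of -1.04 (SE 0.35). Its partner Krt8 overlapped, at 11.48 to 12.48 in TKO tumours and 12.19 to 13.54 in DKO tumours. The tight junction genes Cldn3 and Cldn7 had log2 fold changes of -0.56 and -0.61, or -0.48 and -0.39 without DKO 2. Epcam, the general epithelial adhesion gene, was at 11.02 to 12.43 in TKO tumours and 12.14 to 12.95 in DKO tumours, so every library held abundant epithelial RNA.

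Androgen response genes lay on both sides of 0. The androgen response list of 42 genes had a median of 0.00 with 21 members on each side of 0, and 0.17 without DKO 2.

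Basal and squamous lists had their highest sums in TKO 1 (48540 and 8463 normalized counts) and DKO 2 (101000 and 35800). The basal list had a median of -0.14 with all animals and 0.55 without DKO 2, and the squamous list 0.35 and 1.19. Krt14, the partner keratin of Krt5, was at 11.20, 8.31, 0 and 3.56 in TKO tumours and at 5.18, 11.07, 1.29 and 3.13 in DKO tumours. TKO 2 thus had high Krt5, Krt14 and Trp63 beside high Chga.

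Cell division genes differed by less than the spread between animals. All 30 proliferation genes had a positive difference, with a median of 0.55, and without DKO 2 the median was -0.14 with 23 of 30 negative. The kinetochore kinase gene Bub1 was at 8.44, 9.91, 8.54 and 9.24 in TKO tumours and at 9.25, 5.77, 7.80 and 9.12 in DKO tumours. Mki67, the gene of the Ki-67 antigen, was at 12.40, 14.35, 13.47 and 14.06 in TKO tumours and at 13.59, 10.80, 13.86 and 13.86 in DKO tumours. DKO 2 was the lowest of the 8 for both. The E2F target and DNA replication list of 38 genes had a median of 0.14, and -0.22 without DKO 2.

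Lymphocyte and class II genes lay lower in TKO tumours than in DKO tumours, which did not hold for most named members against other castrated groups (given further on). In bulk tissue, fewer cells of a type and less RNA per cell cannot be told apart. Of 24 T and NK cell genes tested, 21 had a negative difference, 5 were lower and 0 higher at an unadjusted p under 0.05 (beside 1.92% and 1.89% of all genes), and the median was -1.09 (-0.82 without DKO 2). Cd8a, the co-receptor of cytotoxic T cells, was at 3.85, 1.67, 1.71 and 1.76 in TKO tumours and at 4.77, 4.84, 3.03 and 3.84 in DKO tumours. Pdcd1, which encodes the checkpoint receptor PD-1, was at 1.88, 2.10, 0 and 0 in TKO tumours and at 3.62, 3.74, 3.27 and 2.71 in DKO tumours, a log2 fold change of -2.34 (SE 0.66, adjusted p = 0.965). The granule gene Nkg7 was at 2.10 in TKO 2 and 0 in the other 3 TKO tumours, and at 4.11, 4.24, 1.29 and 2.93 in DKO tumours. These levels correspond to few reads, so counting error adds to the spread between animals. The summed list nevertheless overlapped, at 163.2 to 519.5 normalized counts in TKO tumours and 320.8 to 802.1 in DKO tumours.

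All 13 class II antigen presentation genes had a negative difference, with a median of -1.03 (-0.86 without DKO 2) and 3 lower at an unadjusted p under 0.05 (beside 1.92% of all genes). Cd74, the invariant chain that accompanies class II molecules, was at 10.49, 8.08, 8.65 and 9.06 in TKO tumours and at 11.41, 11.55, 9.40 and 10.54 in DKO tumours. The class II gene H2-Aa was at 9.20, 6.92, 7.61 and 7.77 in TKO tumours and at 10.31, 10.14, 7.88 and 9.39 in DKO tumours. TKO 1 overlapped DKO 3 for both, and the other 3 TKO tumours lay below all DKO tumours. Ctss, the protease that trims the invariant chain, had a log2 fold change of -0.79 and -0.86 without DKO 2.

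Of 12 B and plasma cell genes, 12 were negative (median -1.32, and -0.86 without DKO 2), and Jchain, which joins secreted antibody, was at 2.67, 5.41, 1.10 and 1.14 in TKO tumours and at 7.20, 8.13, 4.30 and 4.31 in DKO tumours. The macrophage list of 20 genes had a median of -0.26, and -0.19 without DKO 2. Without TKO 1 and DKO 2 the median was -0.73, with 18 of 20 negative and 7 lower at an unadjusted p under 0.05 (beside 4.33% of all genes), and TKO 1 had the highest macrophage sum of the 8 tumours, 22020 normalized counts. Adgre1, a macrophage surface receptor gene, was at 6.65 to 9.25 in TKO tumours and 6.80 to 8.29 in DKO tumours. The interferon response list of 35 genes had a median of 0.13, or 0.07 without DKO 2.

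Red blood cell transcripts lay higher in TKO tumours. Of 7 erythroid genes tested, 6 were higher at an unadjusted p under 0.05 (beside 1.89% of all genes), and the median was 2.16 (2.34 without DKO 2). Hba-a1, an alpha globin gene, was at 8.74, 5.45, 8.001 and 6.19 in TKO tumours and at 5.07, 5.45, 3.03 and 4.73 in DKO tumours. Alas2, the first enzyme of haem synthesis in erythroid cells, was at 4.99 to 6.53 in TKO tumours and 2.41 to 4.56 in DKO tumours. The summed list was 361.5 to 1841 normalized counts in TKO tumours and 40.23 to 373.1 in DKO tumours, so the ranges overlapped slightly. Its part in the other differences was not tested.

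The fibroblast list had its highest sum in TKO 1, and the skeletal muscle list in TKO 2 and TKO 3. The fibroblast and matrix list of 28 genes summed to 487500 normalized counts in TKO 1, to 20440 to 66820 in the other 3 TKO tumours and to 33740 to 69470 in DKO tumours. Its median difference was 0.82, 0.60 without DKO 2, and -0.09 without TKO 1 and DKO 2. The skeletal muscle list summed to 38740 in TKO 2 and 10450 in TKO 3, to 298.7 and 293.6 in TKO 1 and TKO 4, and to 126.4 to 468.2 in DKO tumours. Most of the sum in TKO 3 was Ttn, at 13.34 there. The mean log2 level of the list was 7.90 in TKO 2 and 1.745 in TKO 3. It was 1.92 and 1.70 in TKO 1 and TKO 4, and 1.58 to 1.90 in DKO tumours. The median difference of the list was 1.49 with all animals and 0.11 without TKO 2 and TKO 3, an alternative also chosen after seeing the data.

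**Figure D4:**
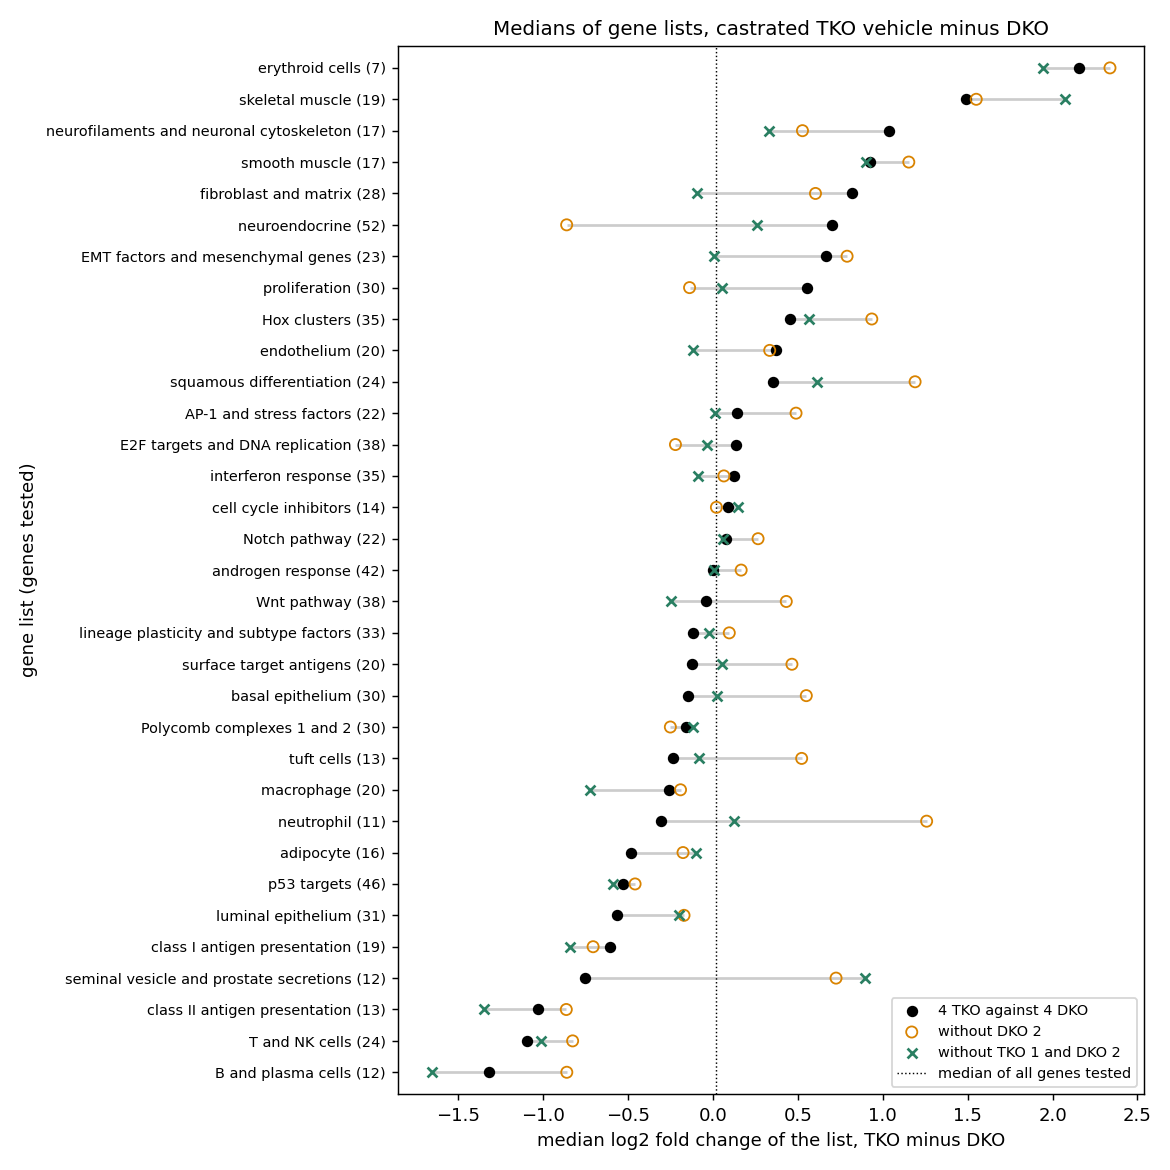
Median log2 fold change, TKO minus DKO, of each gene list (number of genes tested in brackets) with all 8 tumours (black), without DKO 2 (open orange) and without TKO 1 and DKO 2 (green cross), beside the median of all genes (dotted line at 0.02). The neuroendocrine median is 0.70 with all tumours and -0.86 without DKO 2, whereas the p53 target median stays between -0.59 and -0.46 in these 3 fits.

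Members of the Wnt and Hox lists showed large differences in a few genes. Lgr5, the R-spondin receptor that marks stem cells of several epithelia, was at 5.50, 5.80, 6.12 and 7.45 in TKO 1 to 4 and at 1.17, 3.41, 0 and 0 in DKO 1 to 4. The log2 fold change of Lgr5 was 5.07 (SE 0.88, adjusted p = 0.364) and 5.83 without DKO 2 (SE 0.66, adjusted p = 0.0927). Lgr6, a related receptor, was at 3.23 to 5.32 in TKO tumours and 0 to 3.21 in DKO tumours, again with no overlap. Axin2, a general target of Wnt signalling, differed by 0.81 (SE 0.36) and overlapped. The 38 Wnt genes as a list had a median of -0.04, with 2 higher and 0 lower at an unadjusted p under 0.05 (beside 1.89% and 1.92% of all genes). Their median was 0.43 without DKO 2, with 3 higher and 2 lower (beside 2.47% and 2.37%), and -0.25 without TKO 1 and DKO 2. Hoxd8, a homeobox gene of the Hoxd cluster, was at 7.40, 6.49, 9.50 and 9.97 in TKO tumours and at 5.45, 7.48, 3.27 and 6.23 in DKO tumours. The 35 Hox genes had a median of 0.45 (0.94 without DKO 2, and -0.01 without TKO 1).

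Hnf4g, Akr1c19 and Gc lay on the DKO side. The nuclear receptor gene Hnf4g was at 3.38, 3.58, 3.34 and 0 in TKO tumours and at 5.45, 6.87, 5.51 and 5.50 in DKO tumours. For Hnf4g the groups did not overlap, and the log2 fold change was -3.26 (SE 0.88), or -2.91 without DKO 2.

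Akr1c19, an aldo-keto reductase gene, had the smallest p among the genes that the naming rule takes on the lower side. It was at 3.38, 3.44, 2.74 and 1.14 in TKO tumours and at 9.57, 7.20, 9.78 and 9.15 in DKO tumours, a log2 fold change of -6.25 (SE 0.74, adjusted p = 0.108) and -6.83 without DKO 2 (adjusted p = 0.0554). It passed the test without TKO 1 and DKO 2 (log2 fold change -7.06, adjusted p = 0.0389). Gc, the vitamin D binding protein gene, was at 2.33, 0, 0 and 0 in TKO tumours and at 7.67, 4.01, 7.50 and 8.15 in DKO tumours, and passed in that comparison of 3 with 3 as well (adjusted p = 0.0143). The fourth gene called there was Zkscan2, a zinc finger gene, at 2.67, 8.13, 8.60 and 8.34 in TKO tumours and at 4.48, 1.91, 4.40 and 3.72 in DKO tumours (adjusted p = 0.0343). Gc and Zkscan2 were named after their values were seen.

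Other genes with the smallest p on the lower side were Tmem45b, a membrane protein gene, at 8.26 to 8.88 in TKO tumours and 9.81 to 10.67 in DKO tumours, and Clmn, which encodes the actin-binding protein calmin, at 9.11 to 10.22 in TKO tumours and 11.23 to 11.97 in DKO tumours. Their log2 fold changes were -1.77 (SE 0.24) and -1.88 (SE 0.27), and -1.75 and -1.93 without DKO 2. The clock gene Arntl2 differed by -1.47, the tryptophan tRNA synthetase gene Wars by -0.86 and the lung surfactant protein gene Sftpd by -2.83. Dio1, the deiodinase that activates thyroid hormone, was at 1.23, 2.10, 2.97 and 1.76 in TKO tumours and at 5.94, 4.90, 7.47 and 8.90 in DKO tumours. These 6 genes, like Akr1c19 and Gata3, had groups that did not overlap (beside 1.21% of all genes). They were chosen by p in the same animals, so the lack of overlap adds no support.

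On the higher side Pcdh10, a protocadherin gene for cell adhesion in the nervous system, was at 6.20, 9.88, 10.72 and 11.04 in TKO tumours and at 3.09, 0, 0 and 2.93 in DKO tumours. Its log2 fold change was 7.96 (SE 1.25, adjusted p = 0.349) and 7.45 without DKO 2 (adjusted p = 0.254). Pcdh9, another protocadherin gene, was at 6.32 to 8.28 in TKO tumours and 2.75 to 5.32 in DKO tumours (log2 fold change 3.22, or 3.16 without DKO 2). The synaptic calsyntenin gene Clstn2 was at 6.71 to 9.58 in TKO tumours and 5.46 to 6.10 in DKO tumours, and the ankyrin gene Ank2 at 8.65 to 9.96 in TKO tumours and 6.54 to 7.86 in DKO tumours. Pcdh10, Pcdh9, Clstn2 and Ank2 are known from neurons, and none overlapped between the groups.

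Smaller and tighter differences were seen for Wdfy1, an endosomal adaptor gene, at 9.24, 8.94, 9.03 and 9.04 in TKO tumours and at 7.74, 8.25, 8.08 and 7.75 in DKO tumours (log2 fold change 1.11, SE 0.18, adjusted p = 0.350). Rapgef5, a guanine nucleotide exchange factor gene, differed by 1.13 (1.25 without DKO 2), Acp1, a low molecular weight phosphatase gene, by 1.08, and Grb14, an adaptor of the insulin receptor, by 2.14 (1.98 without DKO 2). The 8 genes on this side were also free of overlap (beside 1.23% of all genes), and were likewise chosen by p in the same animals.

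The gene called higher was Rprl3, an RNA related to the RNA component of RNase P (chromosome 8, 3803069 to 3803358, GRCm38). It was at 7.34, 6.67, 6.27 and 6.21 in TKO tumours, from 61 to 120 reads, and at 0 in all 4 DKO tumours. Against a floor of 3 reads per library it was at least 26.5-fold higher in TKO tumours (limma, adjusted p = 0.00688, and adjusted p = 0.0333 without DKO 2). The call was lost without TKO 2 (adjusted p = 0.0738), without TKO 4 (adjusted p = 0.0519) and without DKO 3 (adjusted p = 0.0610). Over the series Rprl3 was above 0 in 8 of 8 TKO animals and in 7 of 40 animals of other genotypes. Among those were all 3 of the 12-week DKO animals whose identifiers are a T and digits like those of the TKO animals, at 5.29 to 5.84. The other 4 had other identifiers and reached up to 8.86, beside 6.21 to 8.52 in the TKO animals. Rpph1, the RNase P RNA gene itself, was at 12.66 to 13.83 in TKO tumours and 12.48 to 14.06 in DKO tumours. Reads of such near-identical copies can be assigned to either, so the value of Rprl3 is uncertain.

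The gene called lower was Nlrp1c-ps, a pseudogene of the Nlrp1 inflammasome family (chromosome 11, 71242430 to 71285232, GRCm38), 1.66 Mb from Trp53. It was at 0 in all 4 TKO tumours and at 5.07, 5.66, 4.30 and 5.19 in DKO tumours, from 13 to 36 reads. Against the floor of 3 reads per library it was at least 9.51-fold higher in DKO tumours (limma, adjusted p = 0.0306), and the call was lost whichever single animal was left out (adjusted p = 0.0554 without DKO 2, and up to 0.268 without TKO 4). Over the series it was at 0 in 8 of 8 TKO animals and above 0 in 40 of 40 others, at 2.58 to 6.66. Rprl3 and Nlrp1c-ps both belong to the lowest 25% of genes by mean level and were named because they were the called genes.

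Its neighbours Nlrp1a and Nlrp1b, named after their values were seen, lay lower in TKO tumours too. Nlrp1a was at 0 in all 4 TKO tumours and at 1.29 to 2.44 in DKO tumours, which is at most 4 reads. Nlrp1b was at 3.56, 2.43, 0 and 1.14 in TKO tumours and at 4.63, 6.01, 3.47 and 4.84 in DKO tumours. These copies are similar in sequence, so reads may be divided between them. Within 5 Mb on either side of Trp53, 170 genes were tested, with a median difference of 0.08. Of these, 6 were higher and 7 lower at an unadjusted p under 0.05 (beside 1.89% and 1.92% of all genes). Both directions together made 7.65% of the window, beside 630 of all 16529 genes tested. A gene on chromosome 9 had the same all-or-none pattern: 9430037G07Rik, also named after its values were seen, was at 0 in 8 of 8 TKO animals and above 0 in 39 of 40 others, and at least 11.8-fold higher in DKO tumours than in TKO tumours against the floor.

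The other castrated groups of the series place these values. They were TKO mice given CPI1688, an Ezh2 inhibitor per the labels (4 animals), and the models called DKO_EP and DKO_EE (5 animals each), to which the design text of the series ascribes Ezh2 deletions. Ezh2 averaged 9.17 ± 0.33 in DKO_EP tumours, 8.46 ± 0.47 in DKO_EE tumours and 9.36 ± 0.62 in DKO tumours. In a fit of all 5 castrated groups, TKO vehicle tumours had 43 genes higher (0.258%) and 48 lower (0.289%) than DKO_EP tumours, and 260 higher (1.56%) and 176 lower (1.06%) than DKO_EE tumours. The comparison with DKO tumours in the same fit gave 14 higher (0.0842%) and 14 lower (0.0842%). These comparisons share the TKO vehicle animals.

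Trp53 averaged 6.67 ± 0.64 in TKO tumours given CPI1688 (SD, n = 4), 8.33 ± 0.15 in DKO_EP tumours and 8.22 ± 0.19 in DKO_EE tumours (SD, n = 5 each), so that both TKO groups lay below all DKO types. The p53 target list summed to 23510 to 31050 normalized counts in DKO_EP tumours and 16010 to 30230 in DKO_EE tumours, the latter overlapping the TKO vehicle sums. In the fit of the 5 groups, Trp53 was lower in TKO vehicle tumours than in DKO_EP (limma, adjusted p = 0.0191) and DKO_EE tumours (adjusted p = 0.0149). Of the named targets, Zmat3 (log2 fold change -1.57), Cdkn1a (-1.72) and Ei24 (-0.49) passed against DKO_EE. Ccng1, Eda2r, Mdm2, Gtse1, Ckap2 and Cd80 did not, and none passed against DKO_EP. Age differs in these comparisons too. For Gata3, the log2 fold change of TKO vehicle tumours in the fit of the 5 groups was -0.26 against DKO_EP and 1.14 against DKO_EE, neither past the test. In the same order, the lymphocyte genes Cd8a (0.63 and 0.93), Pdcd1 (0.996 and 0.77) and Nkg7 (0.18 and 0.12) had positive values. So did the class II genes Cd74 (0.20 and 0.47) and H2-Aa (0.26 and 0.51). Ctss (-0.32 and -0.46) and Jchain (-0.36 and -0.49) had negative values. None of these lymphocyte and class II genes passed the test there. Clmn averaged 9.70 ± 0.25 in TKO tumours given CPI1688, 11.72 ± 0.39 in DKO_EP tumours and 10.83 ± 0.86 in DKO_EE tumours. Wdfy1 averaged 8.80 ± 0.25 in TKO tumours given CPI1688, 8.07 ± 0.33 in DKO_EP tumours and 7.89 ± 0.25 in DKO_EE tumours. In the fit of the 5 groups, Wdfy1 was higher in TKO vehicle tumours than in DKO_EP tumours (log2 fold change 0.99, adjusted p = 0.0142) and than in DKO_EE tumours (1.17, adjusted p = 0.00263).

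For some of the named genes the DKO_EE mean lay nearer the TKO vehicle mean than the DKO mean. Among genes chosen by p, this held for Pcdh10, Akr1c19, Ank2, Clstn2, Grb14, Tmem45b, Dio1, Wars and Gata3. It did not hold for Wdfy1, Rapgef5, Acp1, Pcdh9, Clmn, Arntl2 and Sftpd. TKO vehicle against DKO_EE, the log2 fold changes of Nefl and Nefm were -4.91 and -4.59, neither past the test. Stmn2 passed it at 3.45 (limma, adjusted p = 0.0419). Pcdh10, Lgr5, Gc and Akr1c19 are given by group. Pcdh10 averaged 9.59 ± 2.34 in TKO tumours given CPI1688, 7.11 ± 2.93 in DKO_EP tumours and 10.58 ± 0.30 in DKO_EE tumours. Lgr5 averaged 5.99 ± 1.38 in TKO tumours given CPI1688, 1.13 ± 1.71 in DKO_EP tumours and 5.74 ± 1.82 in DKO_EE tumours. Gc averaged 0.87 ± 0.58 in TKO tumours given CPI1688, 3.84 ± 1.28 in DKO_EP tumours and 0.57 ± 0.79 in DKO_EE tumours, and Akr1c19 averaged 2.68 ± 1.07 in TKO vehicle tumours, 4.91 ± 3.16 in TKO tumours given CPI1688, 9.42 ± 0.18 in DKO_EP tumours and 0.52 ± 0.74 in DKO_EE tumours. TKO vehicle against DKO_EE, the log2 fold changes of Pcdh10, Lgr5, Gc and Akr1c19 were -1.12, 0.48, 0.01 and 2.16, none past the test. Against DKO_EP, Lgr5 (5.09, adjusted p = 0.0221) and Akr1c19 (-6.74, adjusted p = 0.00337) passed it, and Pcdh10 (2.35, adjusted p = 0.443) and Gc (-3.26, adjusted p = 0.0663) did not.

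**Figure D5:**
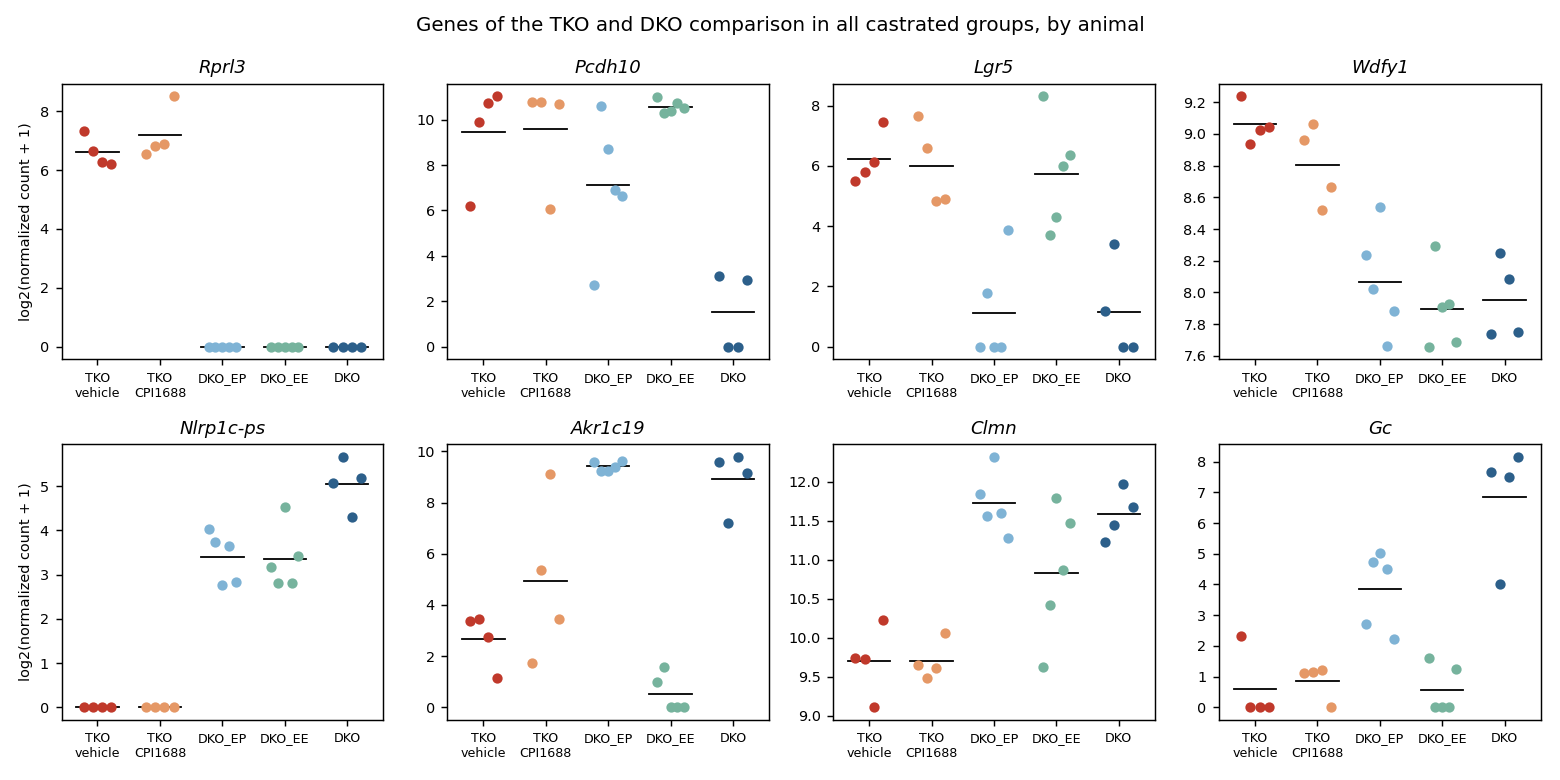
Levels of 8 genes, as log2(normalized count + 1), in each animal of the 5 castrated groups (4, 4, 5, 5 and 4 animals from left to right), with the group mean as a line. Rprl3 is above 0 and Nlrp1c-ps at 0 in all 8 TKO animals. Pcdh10, Lgr5, Akr1c19 and Gc in DKO_EE tumours lie nearer the TKO vehicle mean than the DKO mean.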

How the data were processed

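Per the labels, total RNA of prostate tumour tissue was depleted of ribosomal RNA (RiboErase) and sequenced. The submitters' processing notes name the tools STAR, RSEM, FastQC, DESeq2 and limma and the builds mm10 and GRCm38, without version or role. The authors deposited log2 values, log2 of a normalized count plus 1, for 16772 genes. Of 56 columns, 2 matched no sample and were not used. Each library's values were multiples of a single step, which gave the reads (100% whole within 0.05).

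limma 3.58.1 (R 4.3.3; lmFit, contrasts, eBayes with trend) was fitted to the 8 animals as TKO minus DKO. Genes with spread in the fit were tested, and an adjusted p (Benjamini-Hochberg) under 0.05 was a call. Replicates are animals, numbered in accession order. The code of the fit was checked on simulated counts with the same dispersion for all genes and no outlying animals. These settings differ from the tumours here, so the check does not measure how the fit performs on them. Exact tests and figures used Python 3.11.15 with scipy 1.17.1 and matplotlib 3.10.9. Gene positions come from GENCODE M21 on GRCm38, and promoters from RefSeq on GRCm38.p6.

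The comparison, its members and the 34 gene lists were chosen with earlier results of these data known. The naming rule took up to 12 of the largest differences in each direction that were called with and without DKO 2 and did not overlap (none qualified), the 8 smallest p in each direction, both without gene models and without the lowest 25% of genes by mean, up to 5 members of each list by p, and a fixed set. Members of a list are described by counts and medians, with no test of the list. The alternatives are in the closing section. The SKO model was not analysed here, and a few genes are not reported here.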

Additional observations from a re-analysis of the deposited data

Results flagged for a closer look

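Of 176 groups of 4 values examined, 25 had an animal far from the other 3 by Dixon's criterion, which flags about 1 group in 20 by chance. The flags are not independent, because 12 of them are DKO 2 and 6 are TKO 1.

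DKO 2, the 99-week animal, lay below the other DKO tumours for Chga (3.59), Syp (2.36), Insm1 (1.25), Foxa2 (4.24), Dll3 (0), Eno2 (5.09), Mki67 (10.80), Rb1 (7.88), Ezh2 (8.43) and Gc (4.01), and above them for Hnf4g (6.87) and Neurod1 (1.25). Whether age has a part in this was not tested, since no other DKO animal is as old.

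TKO 1, the 19-week animal, lay below the other TKO tumours for Syp (4.80), Foxa2 (4.80) and Zkscan2 (2.67), and above them for Mdm2 (9.50), Cd8a (3.85) and Gc (2.33).

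Among the remaining TKO tumours, TKO 4 was low for Eda2r (5.58) and Hnf4g (0), TKO 3 was high for Neurod1 (2.14) and TKO 2 was high for Nkg7 (2.10). Among the remaining DKO tumours, DKO 3 was low for Cdkn2a (4.07) and high for Gtse1 (9.40), and DKO 4 was high for Nefl (3.84).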

How the results depend on the processing

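Few genes pass the test with 4 animals against 4, and the number depends on how the spread is estimated. Leaving out each animal in turn gave 0 to 2 genes higher and 0 genes lower by limma, with 473 to 1034 genes at an unadjusted p under 0.05, and Trp53 at log2 fold changes of -2.35 to -1.71. All 5 castrated groups in one fit gave 14 higher and 14 lower (Trp53 -1.97, adjusted p = 0.0145), all 11 groups 51 and 44 (Trp53 -1.97, adjusted p = 1.22e-05), array weights 12 and 13 (Trp53 -2.20, adjusted p = 0.0255), and all 8 castrated TKO animals 18 and 11 (Trp53 -1.99, adjusted p = 0.0523). Age as a covariate over the castrated groups, which cannot be separated there from the TKO genotype, gave 2 higher and 3 lower (Trp53 -1.45, adjusted p = 0.570). Without TKO 1 and DKO 2 there were 2 and 2, and without TKO 2 and TKO 3, 0 and 0 with 513 genes at an unadjusted p under 0.05. Leaving out the lowest 25% of genes gave 0 and 0 (410 genes at an unadjusted p under 0.05), since both called genes are among those removed. An offset of 8 gave 1 and 0 (607 genes at an unadjusted p under 0.05). Quantile normalization, a robust variance prior and limma-voom on the recovered reads gave 1 and 1 with both calls shared. Where a call was lost or gained, the cause was not tested unless stated.

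Of the 88 named genes, 10 changed sign without DKO 2, among them Chga, Syp, Insm1, Foxa2 and Mki67, and 18 with age as a covariate, among them Cdkn1a. Of the 34 list medians, 11 changed sign without DKO 2, 9 without TKO 1 and 14 with age as a covariate, the p53 targets among the last. The Rprl3 call was lost without TKO 2, without TKO 4, without DKO 3, and without TKO 2 and TKO 3, and the Nlrp1c-ps call whichever single animal was left out, in both fits that left out a pair, and with the offset of 8. No paired analysis was possible because the labels give the animals no shared replicate numbers. Depth limits the Nlrp1a values, at most 4 reads per library, and those of the lymphocyte genes named.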

Other observations

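Transcripts of the sex chromosomes differed between the DKO tumours and were named after their values were seen. Xist, the RNA that coats an inactive X chromosome, was at 1.88, 2.92, 3.76 and 4.33 in TKO 1 to 4 and at 10.27, 4.24, 3.27 and 4.60 in DKO 1 to 4. The Y-linked gene Eif2s3y was at 8.37 to 9.09 in TKO tumours and at 6.10, 9.16, 3.03 and 7.60 in DKO 1 to 4. Ddx3y was at 8.94 to 9.54 in TKO tumours and at 8.37, 9.66, 6.42 and 8.18 in DKO tumours, Kdm5d at 8.43 to 9.06 and at 7.79, 9.25, 5.46 and 7.24, and Uty at 8.82 to 9.40 and at 8.20, 9.64, 4.96 and 8.10. DKO 3 was the lowest of the 8 tumours for all 4 Y-linked genes, and DKO 1 was the highest for Xist.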
